A study of Mus musculus with 6 samples.

Results

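The genes described here are the protein-coding neighbours of Mettl14 on mouse chromosome 3. On build mm10 they lie in a 16 Mb window with Mettl14 (chromosome 3, 123364645 to 123385990) near its middle, and their starts run from 115887837 for Dph5 to 130695921 for Ostc. A gene was kept if the authors' deposited normalized table lists it as protein coding. Mettl14 itself, S1pr1, Casp6 and ribosomal protein genes were left out, which kept 42 of the 46 listed genes, out of 43430 genes in the count table. Position and that listing chose the genes. The 33 protein-coding genes of the window that were not listed had at most 8 counts over the 6 libraries together, so level took part in the choice. In all, 40 of the 42 passed the filter on low counts and were tested.

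Bulk RNA was sequenced from sorted thymocytes that carry both CD4 and CD8, called double-positive, the cells that rearrange the T cell receptor alpha genes. The KO group holds 3 libraries from Mettl14fl/fl; CD4-Cre+ mice, and the WT group holds 3 libraries from littermate controls labelled WT. Every library is labelled C57BL/6; ages, the floxed exons, the cell line in which the floxed allele was made, and whether the controls carry floxed alleles or Cre were not found in the labels used here. CD4-Cre is driven by Cd4 regulatory sequence, so deletion begins at about the stage that was sampled. No label ties a library to an animal of its own, so p-values here reflect spread among libraries, which may be partly technical.

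Mettl14 encodes the RNA-binding partner of Mettl3, the catalytic subunit of the writer of N6-methyladenosine in RNA. A floxed gene is made in embryonic stem cells and bred into a strain, and the genes beside it on the chromosome are inherited along with it more often than distant genes are. Neighbouring genes can also share start regions or overlap at their ends, so a change made in one can touch reads counted for another. The question here was whether the neighbours of the floxed gene differed between KO and WT thymocytes.

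Counts in genes were 29717056 to 32334325 per KO library and 29500254 to 33377056 per WT library. All 10 markers of double-positive thymocytes were counted, at a summed level of 15907 to 16744 CPM (counts scaled to library size) in KO and 15242 to 16926 CPM in WT. The 11 myeloid and dendritic cell markers summed to 91.4 to 123 CPM in KO and 87.8 to 93.8 CPM in WT, and 10 of them had a higher mean in KO; their part in the results was not tested. The 5 B cell markers, 4 of them with a higher mean in KO, summed to 797 to 844 CPM in KO and 796 to 845 CPM in WT, and the 9 stromal and endothelial markers to 157 to 169 CPM in KO and 157 to 184 CPM in WT. The stromal markers Krt5, Foxn1 and Pdgfra were at 0 in every library, and the 5 red cell markers summed to at most 0.434 CPM in KO and 0.606 CPM in WT. WT replicate 1 stood apart from the others: it was the highest library for 27.7% of all genes tested, against 11.7% to 17.1% for each of the other libraries.

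Mettl14 was at 42.2, 40.3 and 36.4 CPM in KO and 52.1, 58.8 and 55.8 CPM in WT. The groups did not overlap, and the KO mean was lower by a log2 fold change of -0.49 (SE 0.0855). The difference did not pass the threshold of 0.05 over all genes in edgeR's quasi-likelihood test (adjusted p = 0.289), and DESeq2 gave an adjusted p of 0.0043 with a log2 fold change of -0.48. The count spans the entire gene, and the floxed exons are not named. CPM are scaled by the trimmed mean of M-values (TMM), and a log2 ratio here is edgeR's log2 fold change of KO over WT, so that values below 0 mean less in KO. In bulk RNA, fewer cells expressing a gene and less RNA per cell cannot be told apart.

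No neighbour passed edgeR's test over all genes: 0 of 40, where 5 of 13039 genes tested passed (0.0383%), and the adjusted p-values of the 40 ran from 0.567 to 0.999. At an unadjusted p under 0.05 there were 4, all lower in KO (Pde5a, Egf, Fnbp1l and Arhgap29), which is 10% of the 40. Over all genes tested 6.72% had such a p, with 3.41% higher in KO and 3.31% lower. The count for the neighbours was 1 without KO replicate 1 (2.5%, against 4.52% of all genes at that setting) or without WT replicate 2 (2.5%, against 4.1%). It was 7 without WT replicate 3 (17.5%, against 12.8%). DESeq2 called 1 of the 40, Pde5a, where it called 0.678% of all genes. It gave 4 of the 40 an unadjusted p under 0.05 (Pde5a, Egf, Fnbp1l and Rwdd3), and 859 of the 13039 genes tested in edgeR. The authors' deposited table called 1 of the 41 neighbours with an adjusted p, again Pde5a, against 0.762% of all genes in either direction and 0.516% lower in KO. The median log2 ratio was -0.06 over the 40 neighbours, -0.004 over all genes tested and -0.001 over the 481 other protein-coding genes of chromosome 3 that were tested. Regardless of sign, the median size of the log2 ratio was 0.16 over the neighbours, 0.108 over all genes tested and 0.106 over those other genes of chromosome 3.

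The groups did not overlap for 9 neighbours, or 22.5%, against 12.6% of all genes tested. KO libraries lay above WT libraries for 3 of them (Rtca, Camk2d and Fam241a; 6.59% of all genes) and below for 6 (Pde5a, Egf, Arhgap29, Gclm, Dnttip2 and Ptbp2; 5.97% of all genes). With 1 library left out fewer libraries have to be separated, and the shares were higher for neighbours and for all genes. The count was 15 without KO replicate 3 (37.5%, against 22.6% of all genes), 17 without WT replicate 1 (42.5%, against 25.2%) and 19 without WT replicate 3 (47.5%, against 32.2%). It was 10 without KO replicate 1 (25%, against 18.8%) or without WT replicate 2 (25%, against 18%). Without KO replicate 2 it was 11 (27.5%, against 25%). WT replicate 1 was the highest library for 12 of the 40 neighbours and the lowest for 12.

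**Figure D1:**
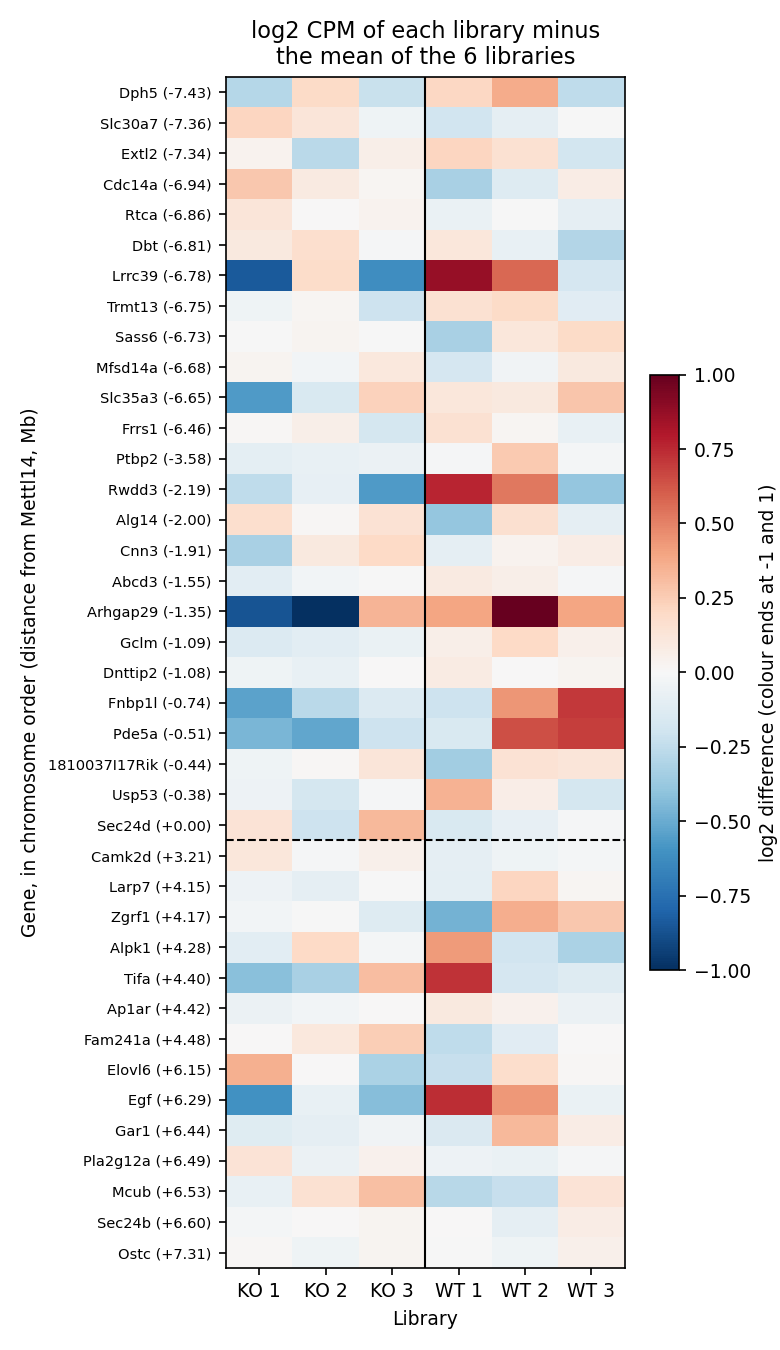
Log2 CPM (with 0.1 CPM added) of each library minus the mean over the 6 libraries, for 39 of the 40 tested neighbours in chromosome order, with the distance from Mettl14 in Mb. KO libraries stand left of WT libraries, the dashed line marks Mettl14, and the strongest colours belong to genes of low level such as Arhgap29, Lrrc39 and Rwdd3, and to Pde5a.

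Distance was measured between the nearest edges of a gene and Mettl14. Under 2 Mb lay 11 neighbours, 10 of them tested, and all 11 were on the side of lower coordinates. Their median log2 ratio was -0.13, with 8 below 0 and 2 above, where 6664 of all 13039 genes tested were below 0. The groups did not overlap for 4 of the 10, all lower in KO. Such genes made up 5.97% of all genes tested, and 28 of the 481 other protein-coding genes of chromosome 3. The 4 neighbours at 2 to 4 Mb had a median of -0.03, and the 26 tested at 4 Mb and more had a median of -0.001, with 14 below 0 and 12 above. No trend with distance was tested, and the nearest group holds 10 genes. On the side of higher coordinates the nearest neighbour listed was Camk2d, at 3.21 Mb; the 5 protein-coding genes of the count table within 2 Mb on that side (Prss12, Ndst3, Tram1l1, 1700006A11Rik and 1700003H04Rik, by GENCODE M21 biotype) had 0 counts in all 6 libraries. Across the window, 33 protein-coding genes were counted but not listed in the normalized table, 23 of them with 0 counts in every library and the rest with at most 8 counts over the 6 libraries together.

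**Figure D2:**
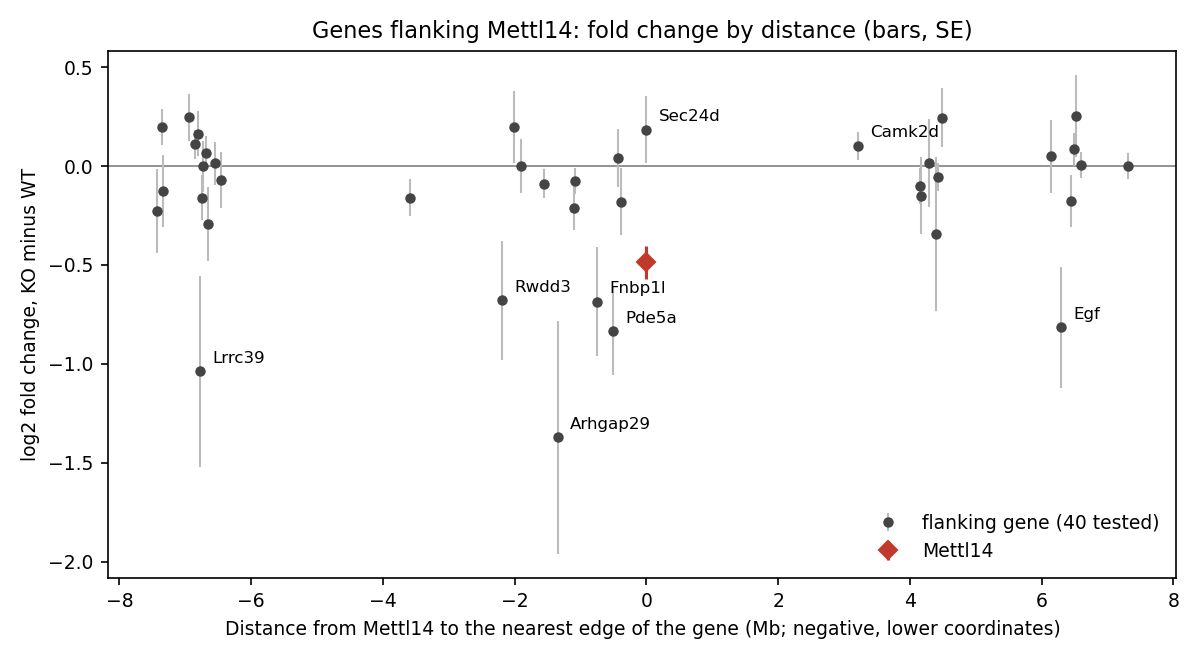
Log2 ratio (log2 fold change, KO over WT, with its SE) of the 40 tested neighbours against the distance in Mb from Mettl14 to the nearest edge of the gene, with Mettl14 as a diamond at 0. Most genes sit near 0, and the side of higher coordinates holds no gene nearer than Camk2d, at 3.21 Mb. The genes below -0.5 are Lrrc39, Rwdd3, Arhgap29, Fnbp1l, Pde5a and Egf.

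Pde5a (chromosome 3, 122729158 to 122859374, plus strand), 0.505 Mb from Mettl14, encodes the phosphodiesterase that hydrolyses cyclic GMP and is the target of sildenafil. It was at 15.2, 14.6 and 18.2 CPM in KO and 18.9, 32.9 and 33.9 CPM in WT. The groups did not overlap, but KO replicate 3 and WT replicate 1 were close together. The KO mean was 16.02 ± 1.91 CPM against 28.6 ± 8.40 CPM in WT (SD, n = 3 each), a difference of -43.9%. The log2 ratio was -0.83 (SE 0.221; edgeR unadjusted p = 0.00569, adjusted p = 0.567). With DESeq2 the value was -0.83 and the adjusted p 0.0297. The authors' deposited table has -0.82 (SE 0.216) and an adjusted p of 0.0254. Without WT replicate 1 the edgeR adjusted p was 0.0463 and the log2 ratio -1.06; the adjusted p over all alternatives ran from 0.0297 to 0.99.

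The start region of Pde5a is shown because it belongs to the only neighbour that DESeq2 and the authors' deposited table called. The 300 bases run from 250 before to 50 after the RefSeq start (GRCm38.p6, chr3:122728908-122729207, plus strand), and capitals mark a GC box, GGGCGG.
Pde5a: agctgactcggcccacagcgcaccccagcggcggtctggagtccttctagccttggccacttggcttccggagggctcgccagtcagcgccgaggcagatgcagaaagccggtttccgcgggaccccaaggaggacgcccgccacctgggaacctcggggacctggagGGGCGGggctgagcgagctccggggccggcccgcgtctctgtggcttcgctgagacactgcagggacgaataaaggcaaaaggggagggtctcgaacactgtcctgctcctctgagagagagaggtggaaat
Both strands were searched for 6 motifs, and shares are of 32851 RefSeq start regions of the same length. The GC box, GGGCGG, was found in 35.7% of them and the CCAAT box in 37.4%. The TATA box, searched as TATAAA, was found in 13.6%, and the cAMP response element, searched as TGACGTCA, in 1.79%. An E-box, searched as CAGCTG, was found in 16.3%, and the RUNX core, searched as TGTGGT, in 16.8%. Among the 37 neighbours with an entry, 43.2% held a GC box, 43.2% a CCAAT box and 2.7%, or 1 gene, a TATA box. The cAMP response element was found in 5.41% of them, the E-box in 16.2% and the RUNX core in 8.11%. In the Pde5a window only the GC box was found, once.

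Mettl14 overlaps 1 neighbour at its end. Sec24d (chromosome 3, 123267496 to 123365635, plus strand), a cargo-binding subunit of the COPII coat that carries proteins out of the endoplasmic reticulum, shares 991 bases with Mettl14, which lies on the minus strand. Sec24d was at 8.92, 7.01 and 10.2 CPM in KO and 7.29, 7.66 and 8.06 CPM in WT, and the groups overlapped. Its log2 ratio was 0.18 (SE 0.17, edgeR adjusted p = 0.846), and it ran from 0.06 without KO replicate 3 to 0.33 without KO replicate 2. Mettl14 had 5.83 times the counts of Sec24d, and reads of the shared bases cannot be assigned with certainty because no source used here states the strand setting of the counting.

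Other neighbours within 2 Mb had these values. Fnbp1l, an F-BAR protein that bends membranes and promotes actin assembly, was at 2.12, 2.57 and 2.82 CPM in KO and 2.69, 4.27 and 5.16 CPM in WT. Its groups overlapped through WT replicate 1, which was also the lowest WT library for Pde5a. The log2 ratio of Fnbp1l was -0.69 (SE 0.276, edgeR unadjusted p = 0.0384, adjusted p = 0.733). Arhgap29, a GTPase-activating protein for small GTPases, was at 0.199, 0.102 and 0.589 CPM in KO and 0.615, 1.12 and 0.615 CPM in WT. Those levels come from 3 to 19 counts per KO library and 18 to 37 per WT library, and KO replicate 3 nearly reached the lower WT libraries. The log2 ratio of Arhgap29 was -1.37 (SE 0.589, edgeR adjusted p = 0.733), and it was -0.97 without KO replicate 2 and -2.35 without KO replicate 3.

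Gclm, the modifier subunit of the enzyme that makes the precursor of glutathione, was at 11.9, 12.3 and 12.6 CPM in KO and 13.7, 15.2 and 13.6 CPM in WT. Its groups did not overlap, and the log2 ratio was -0.21 (SE 0.111, edgeR adjusted p = 0.767). Dnttip2, a nucleolar protein that binds terminal deoxynucleotidyl transferase, was at 58.2, 57.0 and 60.1 CPM in KO and 63.5, 60.2 and 61.3 CPM in WT. Its groups were separated by the small step from KO replicate 3 to WT replicate 2, with a log2 ratio of -0.08 (SE 0.0653, edgeR adjusted p = 0.84). The remaining 4, the peroxisomal transporter gene Abcd3, the actin-binding calponin Cnn3, Usp53 of the ubiquitin-specific protease family and 1810037I17Rik, overlapped between the groups. Their log2 ratios were -0.09 (Abcd3, SE 0.0722), -0.0002 (Cnn3, SE 0.136), -0.18 (Usp53, SE 0.17) and 0.04 (1810037I17Rik, SE 0.147), with edgeR adjusted p-values from 0.832 to 0.999. The sign for Cnn3 turned positive with RLE size factors, with DESeq2, with no filter on low counts and without any of 3 libraries. Bcar3, an adaptor in integrin signalling, had 0, 8 and 3 counts in KO and 0, 1 and 1 counts in WT and was not tested.

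**Figure D3:**
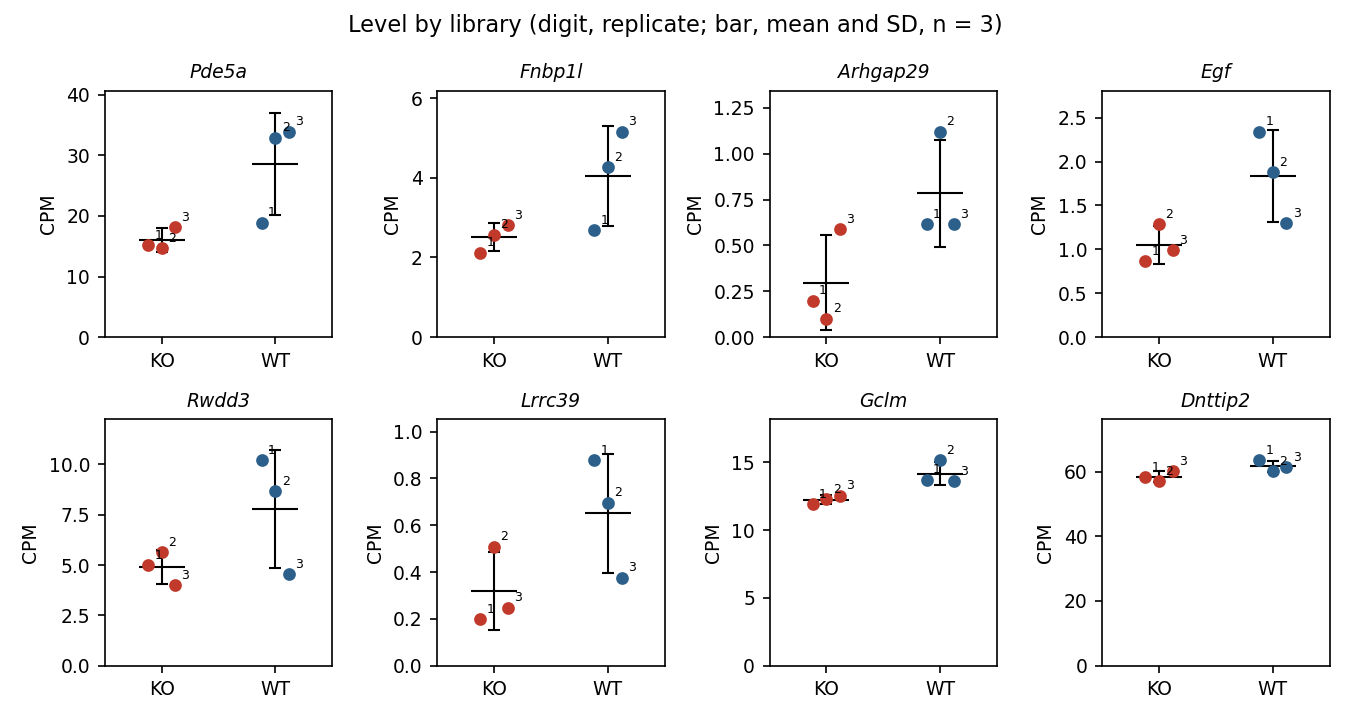
CPM of 8 neighbours in each library, KO left of WT, with the replicate number beside each point and the mean and SD (n = 3) as bars on axes that start at 0. Pde5a, Arhgap29, Egf, Gclm and Dnttip2 show no overlap between the groups, while Fnbp1l, Rwdd3 and Lrrc39 do overlap, and WT libraries 2 and 3 of Pde5a sit well above WT library 1.

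A difference past 1.5-fold was seen for 6 neighbours, all lower in KO, which is 15% of the 40, against 6.91% of all genes in either direction and 4.92% lower in KO. Of these, 5 had a mean under 10 CPM, a limit chosen after the values were seen: they are 33.3% of the 15 neighbours at that level, against 18.5% of all genes at that level. Among the 25 neighbours at 10 CPM or more, Pde5a was the only one past 1.5-fold, or 4%, against 1.12% of all genes at that level. The other 24 had log2 ratios between -0.29 and 0.25.

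Of the genes past 1.5-fold, Rwdd3, Egf and Lrrc39 lie beyond 2 Mb. Rwdd3, which encodes an enhancer of SUMO conjugation, was at 5.01, 5.66 and 3.998 CPM in KO and 10.2, 8.66 and 4.54 CPM in WT, with WT replicate 3 among the KO libraries. Its log2 ratio was -0.68 (SE 0.301, edgeR adjusted p = 0.739), and it was -0.44 without WT replicate 1 and -0.94 without WT replicate 3. Egf, the epidermal growth factor gene, was at 0.862, 1.29 and 0.992 CPM in KO and 2.34, 1.88 and 1.30 CPM in WT, so that KO replicate 2 and WT replicate 3 almost touched. Its log2 ratio was -0.81 (SE 0.306, edgeR unadjusted p = 0.0294, adjusted p = 0.713). Lrrc39, known from muscle, was at 0.199, 0.508 and 0.248 CPM in KO and 0.878, 0.696 and 0.376 CPM in WT, with a log2 ratio of -1.04 (SE 0.482, edgeR adjusted p = 0.75). WT replicate 1 was the highest library for all 3 of these genes. The share of reads in no feature was 13.0%, 14.2% and 12.3% in KO and 14.97%, 15.2% and 13.9% in WT, and its part in these results was not tested. Lrrc39 overlaps Trmt13 on the opposite strand by 2042 bases, and Trmt13 had 56.9 times its counts. Tifa, an adaptor that relays signals to NF-kappaB, lies opposite Ap1ar in the same way, with 60.3 times its counts in Ap1ar.

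By role, 10 of the 42 neighbours were grouped under RNA and translation, and all were tested. In this group 0 passed edgeR's test in either direction, 9 had a log2 ratio below 0 and 1 above, and the median was -0.16. Over all 13039 genes tested 6664 were below 0, and the median was -0.004. Rwdd3 and Lrrc39 are in this list although neither is known to act on RNA, and they had its lowest log2 ratios. Without them 7 of 8 were below 0 and the median was also -0.16, a tally made after the values were seen. The 8 still include the helicase gene Zgrf1, whose part in RNA or translation is not shown here. Ptbp2, a splicing regulator best known in neurons, was at 44.6, 45.4 and 45.8 CPM in KO and 47.3, 57.4 and 47.0 CPM in WT. The groups of Ptbp2 did not overlap, and its log2 ratio of -0.16 (SE 0.0931, edgeR adjusted p = 0.776) was -0.06 without WT replicate 2 and -0.21 without WT replicate 1. Larp7, which binds and stabilises 7SK RNA, was at 79.1, 77.2 and 81.7 CPM in KO and 76.4, 95.2 and 83.2 CPM in WT (log2 ratio -0.10, SE 0.0907, edgeR adjusted p = 0.845). The value for Larp7 was -0.17 without WT replicate 1 and -0.009 without WT replicate 2. Dph5, an enzyme of diphthamide synthesis on elongation factor 2, had a log2 ratio of -0.23 (SE 0.211, edgeR adjusted p = 0.847), which was -0.38 without KO replicate 2 and -0.09 without WT replicate 2. Dph5 overlaps the noncoding gene A930005H10Rik by 294 bases on the opposite strand. Rtca, the RNA terminal phosphate cyclase, was the member above 0, at 39.7, 36.6 and 37.3 CPM in KO and 34.8, 36.3 and 34.2 CPM in WT, with a log2 ratio of 0.11 (SE 0.0741, edgeR adjusted p = 0.793). Trmt13, Zgrf1, Gar1 and Dnttip2 complete the group.

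Larp7 and Zgrf1, a helicase gene, start back to back with 140 bases between them, and this pair is shown because a single stretch of DNA holds both starts; it was chosen after the values were seen. Zgrf1 was at 76.4, 77.7 and 71.2 CPM in KO and 56.1, 100 and 93.7 CPM in WT. WT replicate 1 was the lowest library for both genes, and WT replicate 2 the highest. The log2 ratio of Zgrf1 was -0.15 (SE 0.195, edgeR adjusted p = 0.891). The window is the RefSeq start region of Zgrf1 (GRCm38.p6, chr3:127553239-127553538, plus strand), and capitals mark matches to the 6 motifs above on either strand.
Zgrf1: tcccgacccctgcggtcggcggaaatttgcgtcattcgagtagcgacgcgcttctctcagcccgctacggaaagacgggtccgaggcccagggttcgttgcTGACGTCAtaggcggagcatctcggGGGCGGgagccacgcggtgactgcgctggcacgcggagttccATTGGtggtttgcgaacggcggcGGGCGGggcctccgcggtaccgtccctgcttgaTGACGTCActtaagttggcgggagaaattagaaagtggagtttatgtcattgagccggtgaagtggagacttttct
It holds TGACGTCA 2 times, GGGCGG 2 times and CCAAT once, read as ATTGG on this strand, with no overlap among them. TGACGTCA was found in the start regions of 2 of the 37 neighbours with a RefSeq entry, Zgrf1 and Larp7, whose windows share both matches. By the gene limits of the count table, Slc30a7 and Extl2 form the other pair of neighbours that start back to back, with 55 bases between them. Their RefSeq start regions lie farther apart and do not overlap (chr3:116007357-116007656 and chr3:116008047-116008346). Slc30a7 and Extl2 had log2 ratios of 0.20 and -0.13.

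Among glycan and endoplasmic reticulum genes 7 were tested and 0 passed in either direction, with 4 above 0 and 3 below and a median of 0.006. Slc35a3, the Golgi transporter of UDP-N-acetylglucosamine, was at 18.5, 24.8 and 32.2 CPM in KO and 29.8, 29.3 and 33.38 CPM in WT (log2 ratio -0.29, SE 0.185, edgeR adjusted p = 0.786). It overlaps Mfsd14a on the same strand by 11792 bases, and its log2 ratio was -0.11 without KO replicate 1 and -0.51 without KO replicate 3. Alg14, a subunit of an enzyme that builds the lipid-linked sugar of N-glycosylation, lies 2.003 Mb from Mettl14 and had a log2 ratio of 0.20 (SE 0.182, edgeR adjusted p = 0.845), with 0.07 without WT replicate 1 and 0.34 without WT replicate 2. Sec24b, the paralog of Sec24d, had a KO mean of 207 ± 3.76 CPM and a WT mean of 207 ± 11.3 CPM (SD, n = 3 each; edgeR adjusted p = 0.988). Extl2 and Ostc are also in this group.

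Lipid and metabolic enzymes were 6, with 3 above 0 and 3 below, a median of -0.02 and 0 passing in either direction in edgeR; besides Pde5a, Gclm and Abcd3 they were Dbt, Elovl6 and Pla2g12a. Dbt, a subunit of the branched-chain keto acid dehydrogenase, was at 43.5, 45.8 and 40.4 CPM in KO and 44.0, 38.6 and 33.1 CPM in WT (log2 ratio 0.16, SE 0.113, edgeR adjusted p = 0.802). Of 4 transporter genes 0 passed in either direction and 3 were above 0, with a median of 0.13. Slc30a7, which moves zinc into the Golgi, was at 57.0, 53.4 and 47.5 CPM in KO and 42.9, 46.1 and 48.9 CPM in WT (log2 ratio 0.20, SE 0.0914, edgeR adjusted p = 0.75). Mcub, which dampens calcium uptake by mitochondria, was at 3.35, 3.93 and 4.37 CPM in KO and 2.90, 3.00 and 3.89 CPM in WT (log2 ratio 0.25, SE 0.209, edgeR adjusted p = 0.835). Mfsd14a and Frrs1 had log2 ratios of 0.06 and -0.07.

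Signalling and immune genes numbered 7, of which 5 were tested and 0 passed in either direction, with 2 above 0 and 3 below and a median of -0.34. Their levels per length were at most 0.848 CPM per kilobase averaged over the 6 libraries. That highest value belongs to Camk2d, whose length in the count table is 46398 bases. Camk2d, a calcium and calmodulin-dependent kinase, was at 42.5, 39.0 and 40.8 CPM in KO and 36.9, 38.2 and 38.8 CPM in WT. The groups did not overlap, with a log2 ratio of 0.10 (SE 0.0717, edgeR adjusted p = 0.802). Alpk1, the kinase that senses bacterial sugars upstream of Tifa, and Tifa had log2 ratios of 0.02 and -0.34. Vcam1, an adhesion molecule of stroma and endothelium, had 4, 1 and 5 counts in KO and 2, 4 and 3 counts in WT and was not tested.

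Of 6 genes of the cytoskeleton, cell division and trafficking 0 passed in either direction, with 1 above 0 and 5 below and a median of -0.03. Cdc14a, a phosphatase related to the mitotic exit phosphatase of yeast, was at 43.0, 38.0 and 36.3 CPM in KO and 28.6, 32.6 and 37.7 CPM in WT (log2 ratio 0.25, SE 0.119, edgeR adjusted p = 0.76). Its groups overlapped, and the log2 ratio was 0.15 without WT replicate 1 and 0.36 without WT replicate 3. Sass6, needed to build the cartwheel of new centrioles, had a log2 ratio of -0.002, with a coefficient of variation of 1.31% in KO and 18.2% in WT. Fam241a, in no role list, was at 7.59, 8.16 and 8.99 CPM in KO and 6.32, 6.99 and 7.58 CPM in WT; KO replicate 1 and WT replicate 3 were almost level, and the log2 ratio was 0.24 (SE 0.148, edgeR adjusted p = 0.78).

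Levels per length, as CPM per kilobase of the length given in the count table, spanned 0.0811 for Lrrc39 to 58.3 for Ostc over the 40 genes, with a median of 3.39 against 4.59 over all genes tested. Ostc, a subunit of the oligosaccharyltransferase, was at 58.3 ± 1.498 CPM per kilobase in KO and 58.4 ± 1.92 CPM per kilobase in WT (SD, n = 3 each), with a log2 ratio of -0.001 (SE 0.0658, edgeR adjusted p = 0.997) whose sign changed with other settings. Larp7 followed at 43.7, Dnttip2 at 25.0, Ap1ar, a regulator of AP-1 vesicle traffic, at 22.2, 1810037I17Rik at 17.6 and Cnn3 at 16.8, each the mean over the 6 libraries. Ap1ar had a log2 ratio of -0.05 (SE 0.0707, edgeR adjusted p = 0.892). No source used here says how the table's lengths were computed, and the order depends on them.

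**Figure D4:**
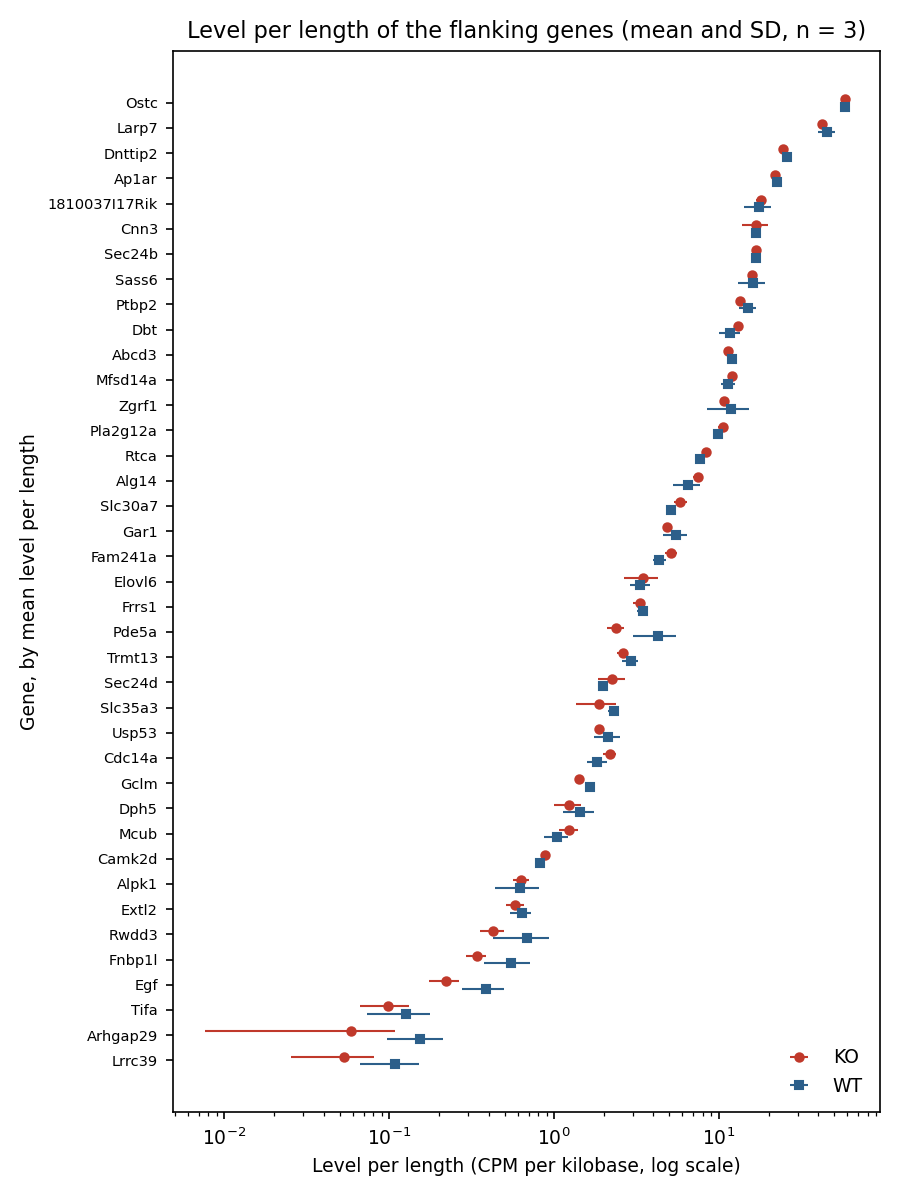
Level per length (CPM per kilobase, log axis) of 39 of the 40 tested neighbours, as mean and SD over 3 KO libraries (circles) and 3 WT libraries (squares). The 2 groups lie close together for most genes, and Pde5a is at 2.38 in KO and 4.24 in WT.

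At the limits of the window, the tested neighbours just inside were Dph5 and Ostc. The tested protein-coding genes just outside were Rnpc3, 9.73 Mb from Mettl14 with a log2 ratio of 0.18 (edgeR adjusted p = 0.836), and Lef1, a transcription factor of thymocyte development 7.72 Mb away. Lef1 averaged 253 ± 11.6 CPM in KO and 243 ± 19.1 CPM in WT (SD, n = 3 each), with a log2 ratio of 0.06 (edgeR adjusted p = 0.887).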

How the data were processed

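Thymocytes were sorted for CD4 and CD8, and total RNA went into Illumina TruSeq libraries, as the labels' protocols state. Reads were handled with Trimmomatic 0.33, STAR 2.5.2, HTSeq and DESeq2 on mm10, per the submitters' processing notes; which annotation was used, and how HTSeq treated strand and overlaps, is not given in the sources used here. The authors deposited raw counts per gene, in 1 file per library and in a combined table that held the same values for all 6 libraries and adds positions and lengths. The authors' normalized signal equals the raw count over a size factor of each library. The deposited log2 fold changes, Wald statistics (a score) and p-values are those of the authors, from a file named as paired. GENCODE M21 served only for biotypes of unlisted genes, since its gene limits equal the file's for 10 of the 42 neighbours.

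Raw counts were tested with edgeR 4.0.16 in R 4.3.3, using TMM, filterByExpr and a two-sided quasi-likelihood test of KO against WT. Benjamini-Hochberg adjustment ran over all 13039 genes tested, with a threshold of 0.05. The SE of a log2 ratio was taken as its size over the root of F. DESeq2 1.42.0, other scalings, no filter, replicate blocks and leaving out each library were the alternatives. HTSeq's summary lines stayed out of library sizes: reads with several alignments were 22.6% to 23.9% and ambiguous reads 0.653% to 0.701% of each library. No library repeated another, the chi-square over its degrees of freedom being at least 17.3 between replicates. The tests were checked on simulated data drawn with the means and dispersions fitted to these libraries, so departures from that model were not checked. Genes were given values by rule: all tested within 2 Mb of Mettl14, the 12 lowest p, any called, the 6 highest levels per length, up to 3 per role list, and those at the window's limits; further genes were named after their values were seen. The values of 1 tested neighbour are not reported here by name; it is part of the counts and medians. The neighbours, role lists and tests were chosen with earlier results of these data known.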

Additional observations from a re-analysis of the deposited data

How the results depend on the processing

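No neighbour was called by edgeR with RLE size factors, upper-quartile scaling, no filter on low counts or either block. DESeq2 called 1 neighbour, Pde5a, and leaving out 1 library gave 0 to 1 (Pde5a without WT replicate 1). The count at an unadjusted p under 0.05 was 1 to 7 when 1 library was left out (4.1% to 12.8% of all genes). The count of groups without overlap was 8 with RLE size factors, upper-quartile scaling or no filter (11.4% to 12.6% of all genes), and 10 to 19 when 1 library was left out (18% to 32.2% of all genes). Over all genes 5 were called, against 105 by DESeq2, 30 with no filter on low counts and 4 to 23 without 1 library (14 without KO replicate 2, 8 without WT replicate 1 and 23 without WT replicate 3). The median over neighbours, -0.06, was -0.015 with no filter on low counts (42 neighbours), and ran from -0.08 to -0.04 without 1 library. The median within 2 Mb ran from -0.17 to -0.08 over the 12 alternatives run. These reuse the same libraries and are not independent, so the unchanged sign adds no support. Signs turned for Cnn3 and Ostc with RLE size factors (0.0022 and 0.0018), DESeq2 (0.0061 and 0.0060) and no filter (0.012 and 0.011). Without 1 library Cnn3 ran from -0.10 to 0.14, Ostc from -0.023 to 0.030 and 1810037I17Rik from -0.10 to 0.13. For Mettl14 DESeq2 passed the threshold (adjusted p = 0.0043) and the edgeR alternatives did not (0.0967 to 0.861).

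Whether replicate numbers pair the libraries cannot be told from 3 libraries a group. The correlation of same-numbered deviations was -0.24, 0.06 and 0.28 for replicates 1, 2 and 3. Between libraries of different number it ran from -0.41 (KO replicate 2 with WT replicate 3) to 0.30 (KO replicate 2 with WT replicate 1). Only the libraries of replicate 3 correlated best with their own number. With the replicate block 0 neighbours were called, 3 had an unadjusted p under 0.05, and 5 genes were called over all. With a 2-level replicate block that sets replicate 3 apart, taken from earlier work on the deposited fold changes, these were 0, 5 and 5. The share of all genes at an unadjusted p under 0.05 is not given for either block, so these counts have no background beside them. Genes with few counts, such as Arhgap29, Lrrc39 and Tifa, have the widest SEs, so a difference there was not detectable at this depth unless large.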

Other observations

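The normalized table lists 10 further genes of the window, 9 with a noncoding biotype and 1 with none given, and 5 of them were tested. Snora24, a small nucleolar RNA gene 0.122 Mb from Mettl14 (chromosome 3, 123507937 to 123508066), had 47, 46 and 39 counts in KO and 244, 90 and 38 counts in WT. Its groups overlapped, with WT replicate 3 among the KO libraries in CPM and WT replicate 1 far above the rest; the log2 fold change was -1.37 (SE 0.56, edgeR unadjusted p = 0.0406, adjusted p = 0.733). Gm4617, a processed pseudogene 0.9995 Mb away, had a log2 ratio of KO over WT of -0.22 (edgeR adjusted p = 0.886), and the noncoding gene A930005H10Rik, 7.48 Mb away, of 0.03 (edgeR adjusted p = 0.978). Gm9761, a processed pseudogene 6.80 Mb away, had 6, 8 and 15 counts in KO and 20, 18 and 16 counts in WT; its groups did not overlap, with a log2 ratio of -0.83 (edgeR unadjusted p = 0.0671, adjusted p = 0.75). Gm4596, which overlaps Dbt, had a log2 ratio of 0.05 (edgeR adjusted p = 0.979). The summed level of the 42 neighbours was 1280, 1286 and 1296 CPM in KO and 1250, 1357 and 1339 CPM in WT, and the groups overlapped.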
